A study of Mus musculus with 12 samples.

Results

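Immediate early genes are transcribed within minutes of synaptic activity from factors already present in the cell, without new protein synthesis. The 10 genes described here are Fos, Fosb, Junb, Egr1, Egr2, Egr3, Egr4, Arc, Npas4 and Nr4a1. They were taken by symbol from the 24079 genes of the count table, where each had 1 row, and all 10 were among the 17823 genes that passed the filter of at least 15 reads over the 12 libraries. None of them differed between Fmr1 KO and wild-type libraries after correction over all genes tested. Their levels instead varied from library to library within each genotype, and several of them did so together.

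In hippocampal neurons, calcium entry through NMDA receptors and voltage-gated channels activates kinases that act on CREB and on the serum response factor with its Elk partners, and these factors bind the promoters of immediate early genes. Most of the encoded proteins are transcription factors that switch on a later wave of genes, whereas Arc acts at the synapse itself. Because the mRNAs are short-lived, their level at any moment follows recent activity, and in CA1 they are known to rise with exploration, handling and seizures.

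The libraries hold ribosome-bound mRNA from hippocampi of male C57BL/6J mice aged 2 to 6 months, immunoprecipitated through an HA tag on the ribosomal protein Rpl22. Both genotypes carried the RiboTag allele and Wfs1-CreERT2, and all mice received tamoxifen (100 mg/kg on 3 days) a week before tissue was taken, so that the tag was switched on in cells that use the Wfs1 promoter, in the hippocampus mainly CA1 pyramidal neurons. The 6 WT libraries come from Wfs1-CreERT2:RiboTag mice and the 6 Fmr1 KO libraries from littermates that also carry the Fmr1 knockout (spelled Frm1 in the labels), each library from a separate pool of 4 to 6 mice. No condition of activity was compared, and the state of the mice before dissection is not given in the sources used here, so the values are levels of mice kept under standard housing.

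Between 39400980 and 55745464 reads per WT library and between 43106629 and 65565479 per Fmr1 KO library were counted on genes. Fmr1 had 1971 to 2608 reads in each WT library, 0 reads in 5 Fmr1 KO libraries and 1 read in the other. The defining CA1 markers were abundant, with Wfs1 at 1270 ± 175 CPM (read counts scaled to a common library size with TMM factors) in WT and 1050 ± 103 CPM in Fmr1 KO libraries (SD, n = 6 each). RNA of other cells was also present in every library, and none of the 57 marker genes of 9 cell types was at 0 reads in any library. In bulk samples of this kind, fewer cells of a type and less RNA per cell cannot be told apart.

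RefSeq windows (GRCm38.p6, the build of the deposited counts) of the 250 bases before the start were found for 7 of the 10 genes: Fos, Fosb, Junb, Egr2, Egr4, Npas4 and Nr4a1. For Egr2, which has 5 annotated starts, the window nearest to the start of the principal GENCODE transcript was used, and the window of Npas4 starts 345 bases from that of its principal transcript. The core of the CREB binding site, TGACG, searched on both strands, was present in all 7 windows, and 17.8% of the 32851 promoter windows of the mouse genome hold it. The following stretches are printed for genes from separate blocks of high correlation across libraries, described below: Junb and Egr4, and Fos, Fosb and Egr2. Between these blocks the correlation was lower, and Fos and Junb were almost unrelated (r = 0.081). Capitals mark TGACG or its reverse complement CGTCA, and in Egr2 also the CArG box, the site bound by serum response factor. Each is written 5′ to 3′ on the strand of the gene.
Junb, chr8:84978749-84978948, minus strand, bases 200 to 1 before the start: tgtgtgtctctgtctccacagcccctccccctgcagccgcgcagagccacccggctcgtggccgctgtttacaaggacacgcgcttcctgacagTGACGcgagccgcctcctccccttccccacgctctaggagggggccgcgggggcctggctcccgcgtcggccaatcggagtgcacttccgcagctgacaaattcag
Egr4, chr6:85513590-85513789, minus strand, bases 200 to 1 before the start: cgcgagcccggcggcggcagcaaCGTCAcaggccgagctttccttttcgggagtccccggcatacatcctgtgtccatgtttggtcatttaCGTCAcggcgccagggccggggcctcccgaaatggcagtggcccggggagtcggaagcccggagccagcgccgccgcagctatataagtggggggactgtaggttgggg
Fos, chr12:85473690-85473889, plus strand, bases 200 to 1 before the start: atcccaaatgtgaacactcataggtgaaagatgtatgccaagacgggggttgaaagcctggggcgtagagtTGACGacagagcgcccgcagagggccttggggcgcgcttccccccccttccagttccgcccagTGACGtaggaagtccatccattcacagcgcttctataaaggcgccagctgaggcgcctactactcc
Fosb, chr7:19310088-19310117, minus strand, bases 72 to 43 before the start: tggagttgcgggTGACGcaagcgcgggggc
Egr2, chr10:67537793-67537822, plus strand, bases 76 to 47 before the start: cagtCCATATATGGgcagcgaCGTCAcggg

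In Fos the core began 129 and 66 bases before the start, in Fosb 60, in Junb 106 and in Egr4 177 and 109. Egr2 held it at 111 and 55 bases, of which the printed stretch shows only the one at 55. Npas4 held it at 179 and 169 bases, and Nr4a1 at 233, 213, 69 and 40 bases. The full palindrome TGACGTCA was in none of the 7 windows (1.55% of all windows), nor was the AP-1 site TGACTCA (4.46%) or the Egr site GCGTGGGCG (0.536%), each searched on both strands. A CArG box was found in 1 of the 7 windows, that of Egr2, and in 1.47% of all windows. These matches describe letters in the windows and no binding was measured.

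Levels between genes were compared per kilobase of exon, using the union of GENCODE exons. Over all 12 libraries, Egr1 was the most abundant of the 10 at 80.53 ± 10.99 CPM per kilobase (SD, n = 12), which is rank 484 of the 16611 genes with a known exon length. Arc followed with 67.5 ± 12.3, Nr4a1 with 50.3 ± 6.67, Egr3 with 32.17 ± 2.199 and Junb with 27.7 ± 4.79 CPM per kilobase. A gap came next, since the lowest library of Junb (20.8) was above the highest of Egr4 (9.11). Egr4 stood at 7.01 ± 1.66, Fos at 4.00 ± 1.03, Egr2 at 2.73 ± 0.788, Fosb at 1.51 ± 0.305 and Npas4 at 0.844 ± 0.203 CPM per kilobase. For all other neighbours in this order the ranges overlapped between libraries. Within single libraries the order was nevertheless steady: Egr1 was above Arc in 9 of 12 libraries, Egr3 above Junb in 11, and every other gene above its next neighbour in all 12. The exon length is the same in every library, so this steadiness does not check the lengths. For Junb the exon union was 2301 bases, longer than its RefSeq gene from 84976909 to 84978748. That of Egr1, 4484 bases, was also longer than its RefSeq gene. With shorter lengths both would stand higher, so the place of Junb beside Egr3 and the rank of Egr1 are uncertain. Fos, Fosb and Egr2 had similar levels in WT (means of 9.29, 9.03 and 9.09 CPM). Their order therefore came mostly from their exon lengths of 2352, 6243 and 3398 bases. The zinc finger factors Egr1 and Egr3, the effector Arc, the nuclear receptor Nr4a1 and the AP-1 subunit Junb thus made up the upper part of the order, and Fos, Fosb, Egr2 and Npas4 the lower.

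The comparison of genotypes asks whether the loss of FMRP alters the ribosome-bound mRNA of these genes. With edgeR (quasi-likelihood fit, p-values adjusted by Benjamini-Hochberg over all 17823 genes), 0 of the 10 genes had an adjusted p under 0.05, where 0.0224% of all genes passed. DESeq2 also called 0 of the 10, where 84 of all genes (0.471%) passed, and limma voom called 0 of the 10 and 4 of all genes. At an unadjusted p under 0.05, 2 of the 10 passed, Egr3 and Npas4, against 7.96% of all genes. Both were lower in Fmr1 KO libraries, as were 3.67% of all genes at that threshold. The log2 fold changes of the 10 genes (Fmr1 KO over WT) ran from -0.39 to 0.13 with a median of -0.030, beside a median of 0.0042 over all genes tested. Of the 10, 6 were below 0, and 48.6% of all genes were. The levels of the genotypes overlapped in all 10 genes, and 0.623% of all genes showed no overlap.

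None of the 57 markers of the 9 cell types passed after adjustment in edgeR or DESeq2, where 0.0224% and 0.471% of all genes passed. All 9 CA1 markers had log2 fold changes below 0 (3 with an unadjusted p under 0.05), with sums of 8720 to 10800 CPM in WT and 8390 to 10000 CPM in Fmr1 KO libraries. All 5 astrocyte, 6 endothelial and 4 choroid plexus markers were above 0, with 2, 3 and 2 of them at an unadjusted p under 0.05. At that threshold 3.67% of all genes were lower and 4.29% higher. Of the others, 5 of 6 oligodendrocyte, 5 of 9 interneuron, 2 of 7 microglia, 5 of 6 dentate granule and 3 of 5 CA2 and CA3 markers were below 0. The sums of the CA1, astrocyte, endothelial and choroid plexus markers overlapped between the genotypes. Their part in the values of the 10 genes was not tested.

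**Figure D1:**
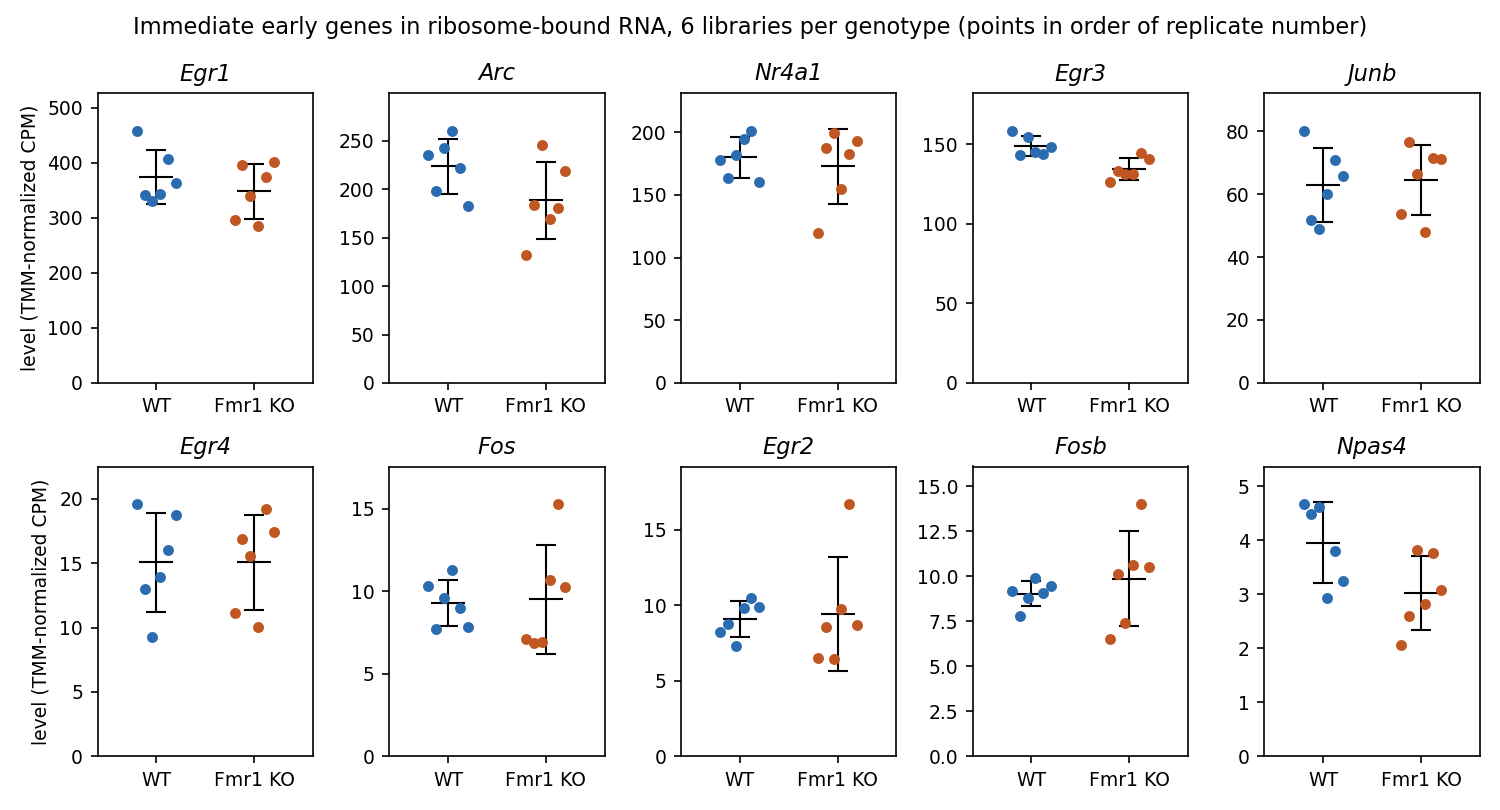
Level of each gene in TMM-normalized CPM (vertical axes start at 0, one scale per gene) in the 6 WT and 6 Fmr1 KO libraries, with the mean and SD as bars and genes in order of level per kilobase. The genotypes overlap in all 10 panels, and Fmr1 KO replicate 5 stands above the others for Fos, Egr2 and Fosb.

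Of the Egr family, zinc finger factors that bind GC-rich sites, Egr3 (Entrez 13655, chromosome 14 from 70077317 to 70082613) had the smallest p of the 10 genes. In WT libraries Egr3 ran from 143 to 158 CPM with a median of 147, and in Fmr1 KO libraries from 126 to 144 CPM with a median of 132. Fmr1 KO replicate 5 was the single library of its genotype that reached into the WT range, and the other 5 lay below every WT library. Its log2 fold change was -0.15 (standard error 0.053, 95% interval -0.26 to -0.034, unadjusted p = 0.013, adjusted p = 0.469 in edgeR), a level of 90.4% of WT, and it had rank 511 by p among all genes. Egr3 was also the steadiest of the 10, with a biological coefficient of variation (the spread between libraries beyond counting error) of 7.44%, where edgeR's trend for genes of its level was 10.3%.

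Egr1 (Entrez 13653, chromosome 18), a widely used marker of activated neurons, ran from 330 to 458 CPM in WT (median 354) and from 285 to 401 CPM in Fmr1 KO libraries (median 357). Replicate 1 was the highest WT library, and the genotypes overlapped over most of their range (log2 fold change -0.10, 95% interval -0.31 to 0.10, adjusted p = 0.872 in edgeR). Egr2 (Entrez 13654, chromosome 10 from 67534469 to 67542188), also known for its role in myelinating cells, ran from 7.30 to 10.5 CPM in WT (median 9.30) and from 6.47 to 16.7 CPM in Fmr1 KO libraries (median 8.63). The highest value belonged to Fmr1 KO replicate 5, and no other Fmr1 KO library was above 9.76 CPM. Its log2 fold change was 0.062 (95% interval -0.34 to 0.47, adjusted p = 0.972 in edgeR) and was -0.18 without that library. Egr4 (Entrez 13656, chromosome 6 from 85511121 to 85513589) measured 15.1 ± 3.84 CPM in WT and 15.1 ± 3.66 CPM in Fmr1 KO libraries (SD, n = 6 each). Its log2 fold change was -0.0014, with a 95% interval of -0.38 to 0.38.

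The Fos and Jun proteins pair to form AP-1. Fos (Entrez 14281, chromosome 12 from 85473890 to 85477274) ran from 7.71 to 11.3 CPM in WT (median 9.28) and from 6.88 to 15.3 CPM in Fmr1 KO libraries (median 8.72). In Fmr1 KO libraries, replicates 1, 2 and 3 were between 6.88 and 7.14 CPM, below every WT library, and replicate 5 was above every WT library (log2 fold change 0.039, 95% interval -0.34 to 0.42, adjusted p = 0.984 in edgeR). Without replicate 5 the log2 fold change of Fos was -0.15. Fosb (Entrez 14282, chromosome 7 from 19302696 to 19310118), whose truncated product accumulates after repeated activity and is not separated in counts per gene, ran from 7.81 to 9.88 CPM in WT (median 9.12). In Fmr1 KO libraries it spread from 6.53 to 14.0 CPM (median 10.3), below and above the whole WT range. Its log2 fold change was 0.13 (95% interval -0.19 to 0.45, adjusted p = 0.901 in edgeR), the highest of the 10, and was 0.0028 without Fmr1 KO replicate 5. Junb (Entrez 16477, chromosome 8 from 84976909 to 84978748) ran from 48.9 to 80.1 CPM in WT and from 47.9 to 76.5 CPM in Fmr1 KO libraries (log2 fold change 0.036, 95% interval -0.23 to 0.30, adjusted p = 0.976 in edgeR).

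Npas4 (Entrez 225872, chromosome 19 from 4984353 to 5003439), a factor induced by calcium entry that recruits inhibitory synapses, was the lowest member, with 112 to 251 reads per library. It ran from 2.93 to 4.67 CPM in WT (median 4.14) and from 2.07 to 3.81 CPM in Fmr1 KO libraries (median 2.95). Of the WT libraries, replicates 1, 2 and 3 were above every Fmr1 KO library, and of the Fmr1 KO libraries replicates 1, 2 and 4 were below every WT library. The log2 fold change was -0.39 (standard error 0.18, 95% interval -0.76 to -0.021, unadjusted p = 0.040, adjusted p = 0.596 in edgeR), 76.4% of WT and the lowest of the 10. Arc (Entrez 11838, chromosome 15 from 74669081 to 74672570), which drives AMPA receptor endocytosis at spines and whose mRNA is a well-known target of FMRP, ran from 183 to 260 CPM in WT (median 229). In Fmr1 KO libraries it ran from 132 to 246 CPM (median 183), with replicate 1 lowest and replicate 3 highest. It was at 84.4% of WT (log2 fold change -0.25, standard error 0.12, 95% interval -0.50 to 0.0083, unadjusted p = 0.057, adjusted p = 0.638 in edgeR). Nr4a1 (Entrez 15370, chromosome 15 from 101253902 to 101274795), an orphan nuclear receptor that acts in memory and spine density, ran from 160 to 201 CPM in WT and from 120 to 199 CPM in Fmr1 KO libraries (log2 fold change -0.059, 95% interval -0.28 to 0.16, adjusted p = 0.942 in edgeR). The lowest Nr4a1 library was again Fmr1 KO replicate 1, which at 120 CPM was below the next lowest at 155 CPM.

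**Figure D2:**
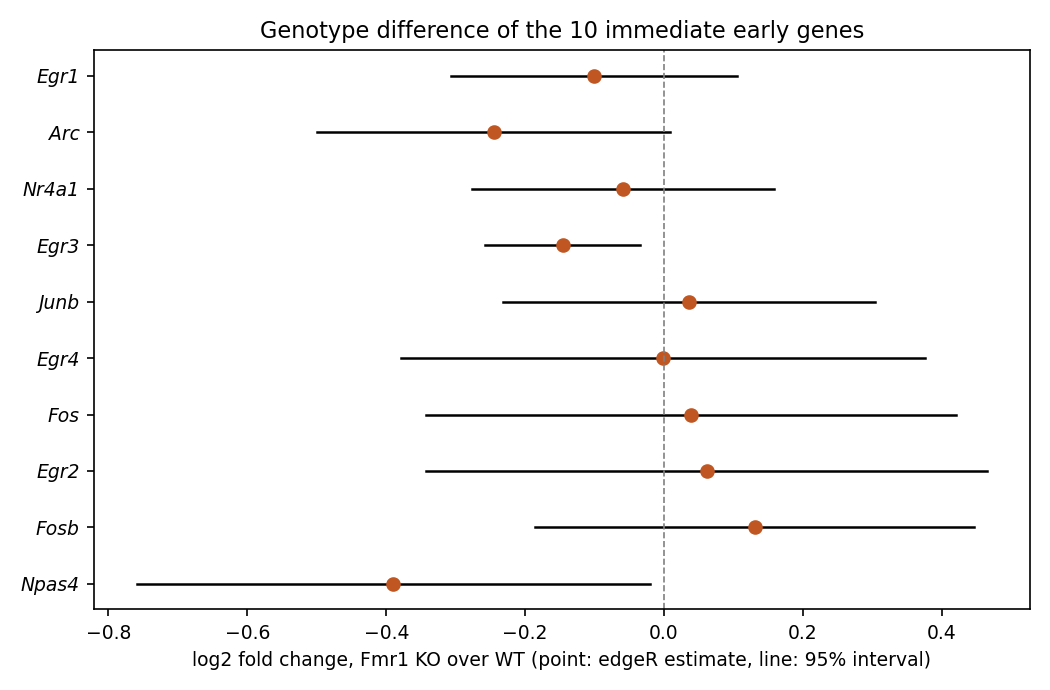
Log2 fold change (Fmr1 KO over WT) of each gene from edgeR with its 95% interval as a line, in order of level per kilobase. The intervals of Egr3 and Npas4 lie below 0 and the other 8 include 0, and none passed after adjustment over all genes.

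The intervals set what these libraries can show. For Egr3 they span 0.22 on the log2 scale, and for Egr2, Egr4, Fos and Npas4 more than 0.7, so the precision differed widely between the members. The biological coefficient of variation was 23.4% for Egr2, 22.1% for Fos, 21.8% for Egr4 and 21.0% for Npas4, where the trend for genes of their level was 16.9%, 16.8%, 14.8% and 22.7%. It was 15.7% for Junb, 14.9% for Arc, 13.0% for Nr4a1 and 12.4% for Egr1, against trend values of 11.2%, 10.2%, 10.2% and 10.2%. Of the 10 genes, 8 therefore varied more between libraries than the trend, with Egr3 and Npas4 below it. The share of all genes above their trend was not counted, so this does not set the members apart.

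The co-variation of the genes was measured on log2 CPM after the mean of each genotype was subtracted. The 45 pairs of genes had a mean Pearson r of 0.426 over the 12 libraries, from -0.078 for Egr2 with Arc to 0.945 for Junb with Egr1, and 44 of the 45 were above 0. Over all pairs of the 13768 genes at 1 CPM or more, the mean r was 0.0023. Positive and negative r offset each other in that mean, and the mean r within other lists of related genes was not measured. The comparison therefore does not set the members apart from other related genes. Each library carries its own scaling and pool of mice, which all of its genes share. The first principal component of the 10 genes held 49.2% of their variance, with every gene on the same side, and the second held 20.4%. Against the mean of the other 9 genes, r ran from 0.459 for Npas4 and 0.466 for Arc to 0.713 for Egr1 and 0.750 for Egr3. The mean r was 0.186 within WT libraries and 0.553 within Fmr1 KO libraries, and this difference was not tested.

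**Figure D3:**
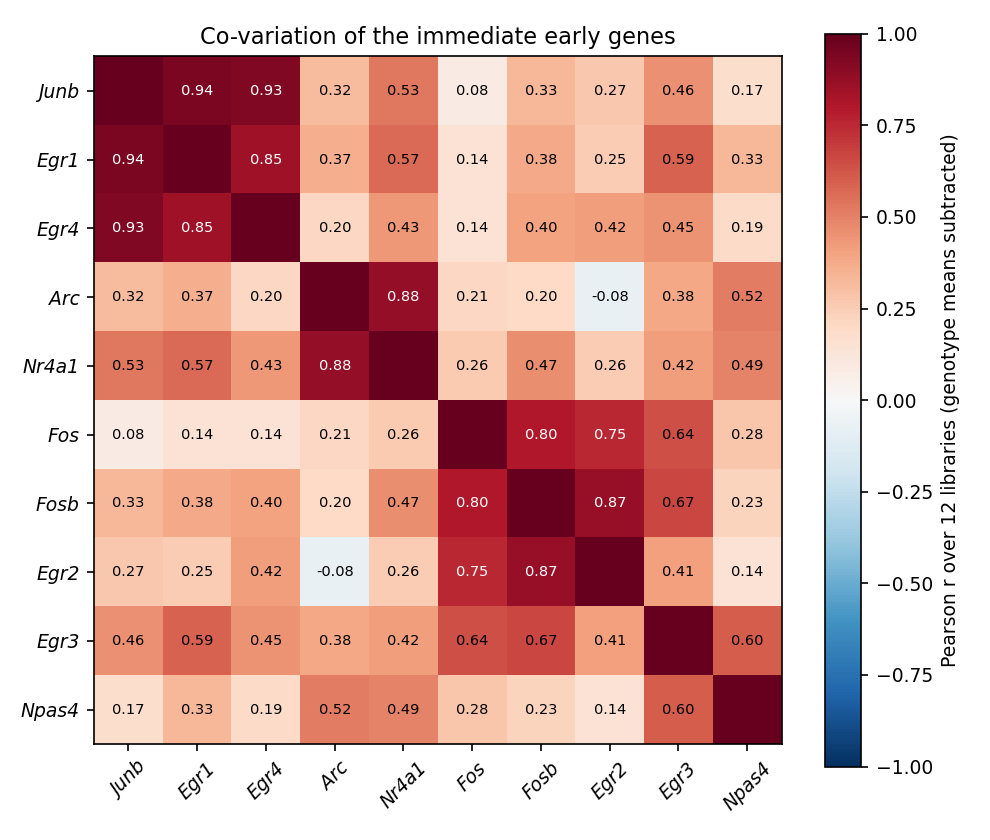
Pearson r between the genes over 12 libraries after subtraction of the genotype means (colour and number, from -1 to 1). Blocks of high r are seen for Junb, Egr1 and Egr4, for Arc and Nr4a1, and for Fos, Fosb and Egr2.

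Pairs were tested by 100000 permutations of the libraries within genotype (two-sided), with adjustment over the 45 pairs, and 5 pairs had an adjusted p under 0.05 for r. Junb, an AP-1 subunit, and Egr1 moved almost in step, with r = 0.945 (permutation p = 1e-05, the smallest that can be reached, adjusted p = 0.00045) and Spearman's rho = 0.930 (permutation p = 4e-05, adjusted p = 0.0018). The correlation was 0.930 within WT and 0.965 within Fmr1 KO libraries, and 0.933 without the 2 libraries farthest from the median of Junb. Here and below, values without the 2 farthest libraries kept the genotype means of all 12 libraries. Junb and Egr4 had r = 0.929 (permutation p = 9e-05, adjusted p = 0.0020) and rho = 0.874 (permutation p = 0.00086, adjusted p = 0.019), with 0.878 after the 2 farthest libraries were left out. Egr1 and Egr4 had r = 0.847 (permutation p = 0.0011, adjusted p = 0.013) and rho = 0.846 (permutation p = 0.0017, adjusted p = 0.025), with 0.778 after the same step. These 3 genes were thus all highest in WT replicate 1 and all low in WT replicate 3 and in Fmr1 KO replicates 1 and 4. The highest Fmr1 KO library differed between them: replicate 2 for Junb, replicate 6 for Egr1 and replicate 5 for Egr4.

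Arc and Nr4a1 made up another pair, with r = 0.877 (permutation p = 0.00037, adjusted p = 0.0056) and rho = 0.839 (permutation p = 0.0028, adjusted p = 0.032). The correlation was 0.766 in WT and 0.916 in Fmr1 KO libraries, and 0.744 without the 2 libraries farthest from the median of Arc, Fmr1 KO replicates 1 and 3. Arc was only loosely related to Junb (r = 0.319, permutation p = 0.338, adjusted p = 0.525, and rho = 0.203, permutation p = 0.546, adjusted p = 0.843).

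Fosb and Egr2 had r = 0.868 (permutation p = 0.0041, adjusted p = 0.037), but rho = 0.706 (permutation p = 0.020, adjusted p = 0.178) did not pass. Without Fmr1 KO replicates 1 and 5, the libraries farthest from the median of Fosb, r was 0.692. Within WT it was 0.369 and within Fmr1 KO libraries 0.928. Fos and Fosb had r = 0.802 (permutation p = 0.0082, adjusted p = 0.061) and rho = 0.727 (permutation p = 0.027, adjusted p = 0.203), and 0.835 without the 2 farthest libraries. For Fos and Egr2, r was 0.751 (permutation p = 0.024, adjusted p = 0.153) and rho 0.587 (permutation p = 0.080, adjusted p = 0.359). It was -0.134 within WT libraries and 0.539 without Fmr1 KO replicates 2 and 5, so that the relation of Fos and Egr2 rested on few libraries. Fos and Junb, whose proteins dimerize, were almost unrelated (r = 0.081, permutation p = 0.812, adjusted p = 0.830, and rho = -0.070, permutation p = 0.841, adjusted p = 0.923).

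**Figure D4:**
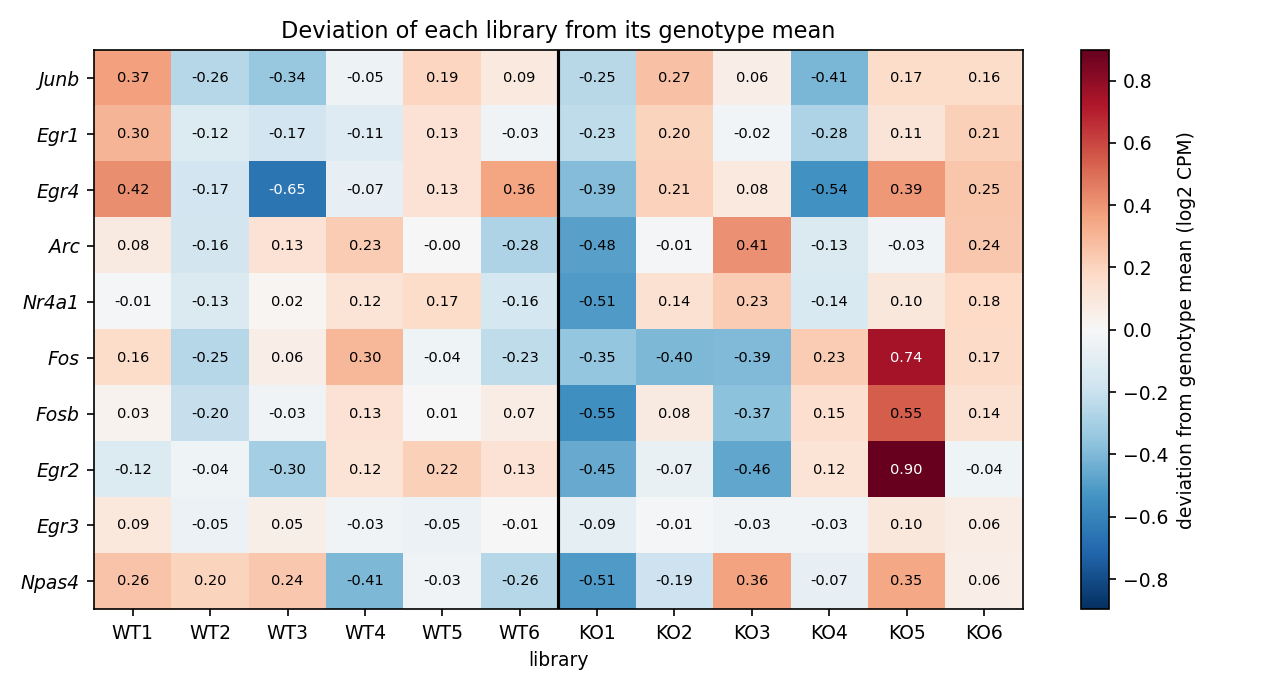
Deviation of each library (columns) from the mean of its genotype in log2 CPM for each gene (rows), in colour and number. Fmr1 KO replicate 1 is below its mean for all 10 genes, and replicate 5 is above it for 9, most for Egr2, Fos and Fosb.

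Among libraries, Fmr1 KO replicate 1 and replicate 5 stood at opposite ends. Replicate 1 was below its genotype mean for all 10 genes, by 0.38 on average on the log2 scale, and was the lowest Fmr1 KO library for 5 of them. Replicate 5 was above the mean for 9 of the 10 genes, Arc being the exception, by 0.34 on average, and was the highest for 5. Replicate 6 was likewise above the mean for 9 genes, by 0.14 on average, and was the highest for 1. Of the WT libraries, replicate 1 was above the mean for 8 genes, by 0.16 on average, and the highest for 5. The other WT libraries lay between -0.12 and 0.071 on average. With genotype means taken anew, the mean r over the 45 pairs was 0.338 without Fmr1 KO replicate 5 and 0.239 without Fmr1 KO replicate 1. With the means of all 12 libraries kept, it was 0.350 without Fmr1 KO replicate 5, with 40 pairs above 0.

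These libraries also differed in other measures. The mean standardized deviation of the members (deviations of each gene set to equal spread) had r = 0.402 and rho = 0.259 with log2 depth. These values over the 12 libraries are given as a description. Fmr1 KO replicate 5 was the deepest library, and r was 0.046 without it. Its endothelial markers, 6 of 6 measured, summed to 63.8 CPM, the highest of the Fmr1 KO range of 44.8 to 63.8 CPM, beside 36.1 to 51.8 CPM in WT libraries. Its oligodendrocyte sum (978 CPM, WT 1090 to 1630 CPM) and microglia sum (99.9 CPM, WT 98.5 to 117 CPM) were the lowest of the Fmr1 KO libraries. Its other marker sums lay within the range of the other Fmr1 KO libraries. Fmr1 KO replicate 1 had the highest summed level of choroid plexus markers (4 of 4 measured), 17420 CPM against 8267 to 13780 CPM in the other Fmr1 KO libraries and 6350 to 11800 CPM in WT. It was also highest for astrocyte markers (5 of 5), at 1188 CPM against 763 to 1041 CPM in the others of its genotype and 698 to 846 CPM in WT, and for microglia markers (7 of 7), at 135 CPM against 99.9 to 120 CPM and 98.5 to 117 CPM in WT. Its interneuron markers (9 of 9) were likewise the highest of its genotype, at 180.5 CPM against 127.3 to 164.7 CPM, beside 117 to 241 CPM in WT. Its CA1 markers (9 of 9) summed to 8667 CPM, within the range of 8390 to 10010 CPM of the other Fmr1 KO libraries. Its dentate granule, CA2 and CA3, oligodendrocyte and endothelial sums were also within the range of those libraries. Over the 12 libraries the mean standardized deviation of the members had r = 0.538 (rho = 0.601) with the CA1 sum. With the CA2 and CA3 sum it had r = 0.518 (rho = 0.706). It had r = -0.675 (rho = -0.566) with the microglia, -0.579 (rho = -0.287) with the astrocyte and -0.412 (rho = -0.203) with the choroid plexus sum. For the remaining sums r ran from -0.339 (interneuron) to 0.102 (endothelial). All of these are given as descriptions. The part of depth and of these cell types in the co-variation was not tested.

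Without Fmr1 KO replicate 1, the log2 fold change of Arc was -0.16, that of Npas4 -0.30 and that of Nr4a1 0.027. The genotype differences of Arc and Npas4 thus kept their direction, and that of Nr4a1 turned.

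Other activity genes and the pathway around the members were read in the same fit, as 5 lists with 80 genes in all. In edgeR 0 of the 80 had an adjusted p under 0.05, beside 0.0224% of all genes, and in DESeq2 0 of the 80, beside 0.471%. With shares this low over all genes, a count of 0 does not set the lists apart. At an unadjusted p under 0.05, 13 of the 80 passed, 11 lower and 2 higher in Fmr1 KO libraries, where 3.67% of all genes were lower and 4.29% higher. The median log2 fold change was below 0 in each of the 5 lists, from -0.097 to -0.029.

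**Figure D5:**
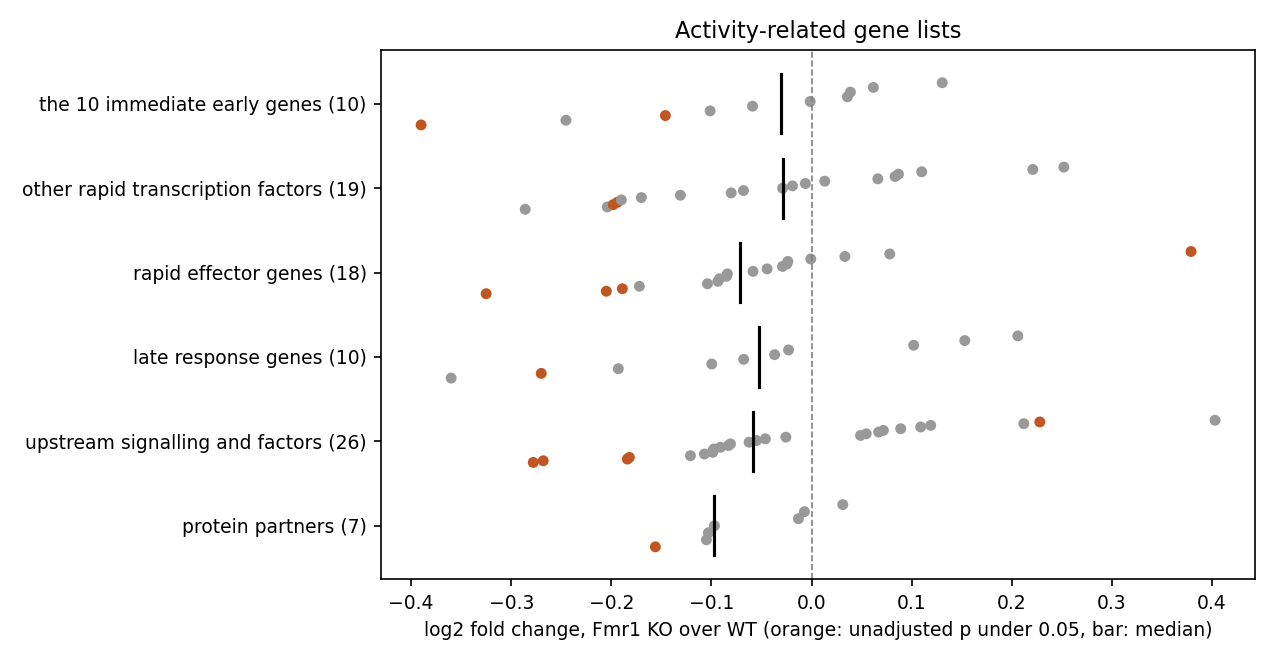
Log2 fold change (Fmr1 KO over WT) of each gene in the 10 immediate early genes and in 5 lists of related genes, with the number of genes in parentheses, the median as a bar and genes at an unadjusted p under 0.05 in orange. The medians lie between -0.097 and -0.029, and no gene passed after adjustment over all genes.

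Among 19 other rapidly induced transcription factor genes, 2 had an unadjusted p under 0.05, both lower. Nr4a2, a relative of Nr4a1, measured 53.9 ± 5.27 CPM in WT and 47 ± 6.14 CPM in Fmr1 KO libraries (SD, n = 6 each, log2 fold change -0.20, adjusted p = 0.610 in edgeR), and Klf10 27.2 ± 2.47 and 23.8 ± 3.09 CPM (log2 fold change -0.19, adjusted p = 0.625 in edgeR). Of 18 rapid effector genes 3 were lower and 1 higher at that threshold. Homer1, whose short activity-induced form uncouples metabotropic glutamate receptors from their scaffold and is not separated in counts per gene, had the smallest p of the 80 genes. It measured 90.5 ± 5.21 CPM in WT and 78.5 ± 5.22 CPM in Fmr1 KO libraries (SD, n = 6 each, log2 fold change -0.20, unadjusted p = 0.0037, adjusted p = 0.349 in edgeR, adjusted p = 0.102 in DESeq2). The MAP kinase phosphatase genes Dusp5 and Dusp4 had log2 fold changes of -0.33 and -0.19 (adjusted p = 0.553 and 0.573 in edgeR), and Cyr61, a secreted matrix protein, was at 0.38 (adjusted p = 0.560 in edgeR) with 3.22 CPM in WT.

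Of 10 late response genes, Nptx2, which clusters AMPA receptors, was the 1 gene at an unadjusted p under 0.05 (log2 fold change -0.27, adjusted p = 0.621 in edgeR), and Bdnf was at -0.037 (adjusted p = 0.955 in edgeR). Of 26 genes of upstream kinases, factors and coactivators, 4 were lower and 1 higher at that threshold. The coactivators Crebbp and Ep300 had log2 fold changes of -0.27 and -0.18 (adjusted p = 0.532 and 0.595 in edgeR), Elk4, a partner of serum response factor, -0.28 (adjusted p = 0.613 in edgeR), and Mapk3, the kinase ERK1, 0.23 (adjusted p = 0.577 in edgeR). Of 7 genes of dimer partners and corepressors, Rxra, a partner of nuclear receptors, was lower at an unadjusted p under 0.05 (log2 fold change -0.16, adjusted p = 0.535 in edgeR).

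The list genes were also set against the mean standardized deviation of the 10 members over the 12 libraries, as a description. Of single libraries, only Fmr1 KO replicate 5 was left out for this profile. Over all 17823 genes tested the median r with that profile was -0.0435, and -0.0050 without Fmr1 KO replicate 5. Of all these genes, 1169 had r above 0.5, and 1200 without that library. For the late response genes the median r was 0.549, with 6 of 10 genes above 0.5, among them Nptx2 (0.688), the neuropeptide precursor Vgf (0.629) and Bdnf (0.556). The median was 0.387 without Fmr1 KO replicate 5, with 3 genes above 0.5. The other rapid transcription factors had a median r of -0.011, the rapid effectors 0.064, the upstream genes -0.019 and the protein partners -0.30. Without Fmr1 KO replicate 5 these medians were 0.121, 0.289, 0.192 and -0.049, so that the late response genes stood less far above each of these 4 lists without that library. The CA1 markers had a median r of 0.356, and of 0.440 without it.

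In the 4 lists other than the late response genes, 9 genes had r above 0.5. Of these, 6 stayed above 0.5 without Fmr1 KO replicate 5: Arl4d, of the ADP-ribosylation factor-like family (0.908, then 0.838), Klf10 (0.817, then 0.680), Ier5 (0.610, then 0.517), Dusp6, a phosphatase of ERK (0.584, then 0.661), the kinase gene Plk2 (0.572, then 0.647) and Nab2, a corepressor of Egr proteins (0.529, then 0.583). The other 3 did not: the CREB coactivator Crtc2 (0.614, then 0.318), Nr4a2 (0.596, then 0.349) and Map2k1, the kinase MEK1 (0.540, then 0.369). Errfi1 (0.72), Srf (0.651), Mkl1 (0.626), Mef2a (0.606), Crtc1 (0.598) and Rxrb (0.575) were above 0.5 only without Fmr1 KO replicate 5. Above 0.5 were then 2 of 19 other rapid transcription factors and 4 of 18 rapid effectors. So were 4 of 26 upstream genes and 2 of 7 protein partners. Homer1 had r = 0.041, and 0.288 without that library.

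Among the 13758 genes at 1 CPM or more outside the members, the 10 with the pattern most like the mean of the members over 12 libraries were Arl4d (r = 0.908), Tox4 (0.851), Arhgef2 (0.850), 9030624G23Rik (0.847), Dctpp1 (0.830), Pip5k1a (0.823), Klf10 (0.817), Rn45s (0.816), Unc13a (0.814) and Adam11 (0.812). The median r over these genes was -0.026. Arl4d measured 9.97 CPM on average and did not differ between genotypes at an unadjusted p under 0.05 (log2 fold change 0.033). Rn45s, the precursor of ribosomal RNA, was at 24500 CPM on average in these poly(A)-selected libraries. Without Fmr1 KO replicate 5 the 10 genes kept r between 0.680 and 0.844, but 0 of them remained among the 10 most alike, where Arl4d had rank 15 and Klf10 rank 202. The naming of single genes by this likeness was thus not stable to leaving out that library. Fmr1 KO replicate 1, at the opposite end, was not left out for these values.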

How the data were processed

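The authors aligned single reads of stranded poly(A) libraries with TopHat 2.1.1 (Bowtie 2.2.8) to mm10 and deposited counts per gene from HTSeq 0.6.1p1 in union mode on the opposite strand, without normalization. Genes with at least 15 reads in total were kept, as in the paper, and tested with edgeR 4.0.16 (TMM, quasi-likelihood test, genotype only) in R 4.3.3, with Benjamini-Hochberg adjustment. The methods of the paper name DESeq2, used here (1.42.0) as an alternative beside limma 3.58.1 voom. Intervals (95%) use the standard error taken from the size of the log2 fold change over the square root of F. Log2 CPM used a prior count of 2. Exon lengths were found for 93.2% of genes by Entrez identifier. The fit and the correlation step were tested on simulated data. Depth was 39400980 to 65565479 reads per library, and precision covers the spread between pools. Coordinates are RefSeq genes on GRCm38.

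The members and lists were chosen with earlier results of these data known. Named genes are the members, Fmr1, at most 4 genes per list with the smallest unadjusted p under 0.05, and the 10 genes most alike. List genes named for their r with the members, Bdnf, and the CA1 marker Wfs1 were chosen after their values were seen. Alternatives were other scalings, tests, filters, a replicate block, each library left out, and other settings of the correlation.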

Additional observations from a re-analysis of the deposited data

Results flagged for a closer look

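The 6 libraries of a genotype were searched for a single extreme value, for each of the 10 genes, by Dixon's ratio of the end gap to the whole range. Of these 20 sets, 1 exceeded the critical ratio of 0.625, and chance gives about 1. Egr2 in Fmr1 KO libraries had a ratio of 0.679, since replicate 5 was at 16.7 CPM and the other libraries were between 6.47 and 9.76 CPM.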

How the results depend on the processing

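In all 21 alternatives for each, 0 of the 10 members and 0 of the 80 list genes passed. Over all genes 4 passed, 84 with DESeq2, and from 2 to 6 with each library left out. The median log2 fold change of the members stayed between -0.044 and -0.0091, and between -0.14 (without Fmr1 KO replicate 5) and 0.049 (without Fmr1 KO replicate 1) with each library left out. Egr1, Egr3, Arc, Npas4 and Fosb kept their direction in all 20 alternatives. With each library left out, the log2 fold change of Fos ran from -0.15 to 0.12, of Junb from -0.027 to 0.12, of Egr2 from -0.18 to 0.15, of Egr4 from -0.11 to 0.091 and of Nr4a1 from -0.10 to 0.027, turning sign. Egr4 was at 0.022 with library totals, 0.013 in limma voom and 1.6e-05 with filterByExpr. The causes were not tested. The mean r of the members was 0.239 to 0.496 with each library left out and 0.186 to 0.553 otherwise. The lowest adjusted p of a member in any alternative was 0.246, for Egr3.

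The genotypes share replicate numbers, but deviations of same-numbered libraries correlated between -0.19 and 0.257, above 0.1 in 3 of 6 pairs, and 0 of 6 Fmr1 KO libraries correlated best with its own number. With the replicate block, the mean r was 0.542, 4 genes passed and no member, and Fos was at -0.014, Egr2 at -0.0090 and Egr4 at 0.0013.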
